A study of Mus musculus with 7 samples.

Results

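The genes described here are 10 that serve as neutrophil granule and alarmin genes in skin: S100a8, S100a9, Lcn2, Ngp, Ltf, Camp, Retnlg, Csf3r, Ly6g and Slpi. They were picked by name, out of 55450 genes in the count table, and fall into 6 that among skin cells are known mainly from neutrophils (Ngp, Ltf, Camp, Retnlg, Csf3r and Ly6g) and 4 that keratinocytes also make (S100a8, S100a9, Lcn2 and Slpi). This division comes from general knowledge and not from the values, and it is not strict, as keratinocytes can express Camp and glands Ltf. RNA was sequenced from homogenized dorsal skin of 7 wild type male C57BL/6 mice aged 24 months. In all 7, the back had been clipped, cleared of hair with a depilatory lotion and wiped with ethanol, and the skin then stayed under a semi-occlusive dressing for 5 days. DMSO, the vehicle, was applied to 4 mice (480, 481, 482 and 483), and 5 μM ABT-263 (navitoclax, an inhibitor of BCL-2 and BCL-xL used as a senolytic) to 3 mice (476, 477 and 478). Each library was 1 mouse, and skin that received neither the vehicle nor the dressing was not analysed here.

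Neutrophils carry most of their antimicrobial proteins in granules that are filled in the bone marrow. Primary granule genes (Mpo, Elane) are shut off early in maturation, secondary granule genes (Ngp, Ltf, Camp) are transcribed at an intermediate stage, and the mature cell in tissue transcribes receptors and alarmins such as Csf3r and S100a8. S100a8 and S100a9 form calprotectin, which binds zinc and calcium and acts on the receptor Tlr4, and Lcn2 holds iron-loaded bacterial siderophores. Stressed or wounded keratinocytes switch on S100a8, S100a9, Lcn2 and Slpi themselves, so in whole skin these messages can come from the epidermis, from neutrophils or from both. In bulk RNA a change in the number of cells and a change in RNA per cell cannot be told apart.

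Total counts ran from 20344364 to 43562330 per library, with all 3 ABT-263 libraries deeper than any of the DMSO libraries. Levels are given as CPM, counts relative to the library size after TMM scaling. A gene was called when the quasi-likelihood test of edgeR gave an adjusted p under 0.05 over the 17959 genes that passed the filter on low counts. To show how far a call rests on single mice, the fit was repeated 7 times with each mouse left out in turn. By the rule above 24.2% of the genes tested were called, and 12.4% were called higher after ABT-263. With single mice left out, the share called was 23.5% without DMSO mouse 480, 16.1% without 481, 10.3% without 482 and 11.7% without 483, and 12%, 21.6% and 9.39% without ABT-263 mice 476, 477 and 478. The labelled tissue showed its markers: the 7 keratinocyte markers summed to between 19304 and 68511 CPM in every mouse, and 4 skeletal muscle genes to between 15352 and 47573 CPM. ABT-263 mouse 476 stood apart from mice 477 and 478 in its blood and leukocyte transcripts, described further on, and results are given with and without it.

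Of the 10 genes, 6 passed the filter on low counts, all 4 that keratinocytes share and 2 of the 6 neutrophil genes. All 6 had a positive log2 fold change, as did 9000 of the 17959 genes tested. Of the 6, 3 rose at the threshold (Retnlg, Csf3r and S100a8), where 12.4% of all genes tested did. Retnlg passed the filter through the ABT-263 mice. In 5 of the 6 every ABT-263 mouse lay above every DMSO mouse, Slpi being the exception, and 18.7% of all genes tested were ordered in that way. The median log2 fold change was 2.74 over the 4 shared genes, all of which passed the filter, against 0.0022 over all genes tested.

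**Figure D1:**
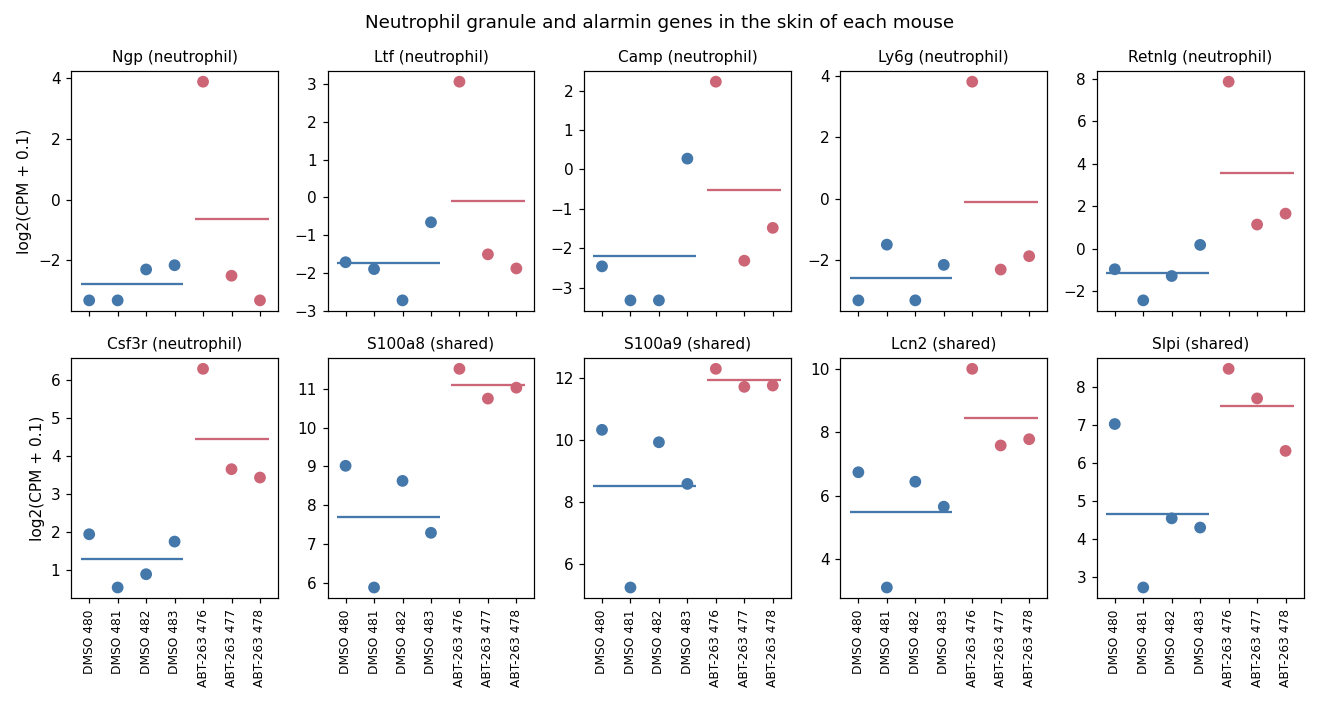
Level of each of the 10 genes in each of the 7 mice as log2(CPM + 0.1), with the DMSO mice in blue, the ABT-263 mice in red and a line at the mean of each group on that scale. Ngp, Ltf, Camp and Ly6g are high in ABT-263 mouse 476 and lie among the DMSO values in mice 477 and 478, whereas S100a8 and S100a9 are high in all 3 ABT-263 mice.

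The shared alarmins were abundant in skin of both groups. S100a8 (ENSMUSG00000056054), on chromosome 3 from 90668978 to 90670035 on the plus strand of GRCm38, stood at 518, 59.3, 396 and 157 CPM in DMSO mice 480, 481, 482 and 483 and at 2912, 1714 and 2082 CPM in ABT-263 mice 476, 477 and 478. The lowest ABT-263 mouse was above the highest DMSO mouse, and the DMSO mice differed among themselves by 8.73-fold. The mean of S100a8 was 283 ± 211 CPM (SD, n = 4) with DMSO and 2236 ± 613 CPM (SD, n = 3) with ABT-263, and it rose by 2.98 on the log2 scale (standard error, SE, 0.67, edgeR adjusted p = 0.0208), or 7.91-fold. It was called in 4 of the 7 fits that left out a mouse, the exceptions being those without DMSO mouse 483 and ABT-263 mice 476 and 478, with a log2 fold change between 2.64 and 3.45.

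S100a9 (ENSMUSG00000056071), its partner in calprotectin, lies on the minus strand of the same chromosome from 90692632 to 90695721. Its levels were 1285, 38.0, 974 and 384 CPM after DMSO and 5016, 3355 and 3453 CPM after ABT-263, again without overlap. DMSO mouse 481 had 33.8-fold less than DMSO mouse 480. The means were 671 ± 563 CPM (SD, n = 4) and 3941 ± 932 CPM (SD, n = 3), and the log2 fold change of 2.56 (SE 0.91) did not pass the threshold (edgeR adjusted p = 0.0772). Of the 7 fits that left out a mouse it passed in 1, that without DMSO mouse 481, with a log2 fold change of 2.16 and an edgeR adjusted p of 0.0295.

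Both subunits of calprotectin kept to a proportion between 0.403 and 0.603 in 6 of the 7 mice. The count ratio of S100a8 to S100a9 was 0.403, 0.407 and 0.409 in DMSO mice 480, 482 and 483, and 0.581, 0.511 and 0.603 in ABT-263 mice 476, 477 and 478. DMSO mouse 481, lowest for both genes, was the exception with a ratio of 1.56.

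Lcn2 (ENSMUSG00000026822), lipocalin 2, on chromosome 2 from 32384633 to 32388252 on the minus strand, had 106, 8.43, 86.5 and 50.0 CPM after DMSO and 1028, 192 and 219.8 CPM after ABT-263. The groups did not overlap, and mouse 476 had 5.00 times the mean of the other two ABT-263 mice. The means were 62.9 ± 43.2 CPM (SD, n = 4) and 480 ± 475 CPM (SD, n = 3), which is 2.93 in log2 fold change (SE 0.90), just outside the threshold (edgeR adjusted p = 0.0508). Without mouse 476 it was 1.72 (edgeR adjusted p = 0.261).

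Slpi (ENSMUSG00000017002) encodes an inhibitor of neutrophil elastase and lies on chromosome 2 from 164354070 to 164389095 on the minus strand. It stood at 131, 6.53, 23.4 and 19.7 CPM after DMSO and at 360, 209.6 and 80.3 CPM after ABT-263. DMSO mouse 480 lay above ABT-263 mouse 478, so the groups overlapped. From a mean of 45.2 ± 57.8 CPM (SD, n = 4) to one of 217 ± 140 CPM (SD, n = 3), the log2 fold change of 2.26 (SE 0.98) did not pass (edgeR adjusted p = 0.130), and without DMSO mouse 480 it was 3.71 with an edgeR adjusted p of 0.0186.

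The 6 neutrophil genes were near 0 in DMSO skin, where their summed level was between 1.85 and 6.16 CPM. After ABT-263 the sum was 352 CPM in mouse 476 and 15.0 and 14.3 CPM in mice 477 and 478. Mouse 476 thus held 92.3% of the ABT-263 group's sum for these genes, and 45.2% of it for the 4 shared genes.

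Retnlg (ENSMUSG00000022651), resistin-like gamma, a secreted protein of mouse neutrophils and their marrow precursors, lies on chromosome 16 from 48872621 to 48874496 on the plus strand. It had 0.409, 0.0843, 0.308 and 1.03 CPM (10, 2, 6 and 25 counts) after DMSO and 232, 2.09 and 3.03 CPM after ABT-263. All 3 ABT-263 mice were above all DMSO mice, but mouse 476 had 90.7 times the mean of the other two. With so few counts after DMSO, Retnlg passed the filter through the ABT-263 mice. The DMSO mean was 0.457 ± 0.403 CPM (SD, n = 4) and the ABT-263 mean 79.1 ± 133 CPM (SD, n = 3). It rose with a log2 fold change of 7.40 (SE 1.96, edgeR adjusted p = 0.0367). Without mouse 476 the log2 fold change was 2.47 (SE 0.70) and the call was lost (edgeR adjusted p = 0.0576). It was also lost without each of the 4 DMSO mice in turn (edgeR adjusted p from 0.0645 to 0.0805).

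Csf3r (ENSMUSG00000028859), the receptor for granulocyte colony-stimulating factor, lies on chromosome 4 from 126024550 to 126044440 on the plus strand. Its levels were 3.72, 1.35, 1.75 and 3.25 CPM after DMSO and 78.0, 12.4 and 10.7 CPM after ABT-263, so that even the lowest ABT-263 mouse was well above the DMSO range. The mean of Csf3r was 2.52 ± 1.15 CPM (SD, n = 4) with DMSO and 33.7 ± 38.4 CPM (SD, n = 3) with ABT-263, and it rose by 3.73 on the log2 scale (SE 0.78, edgeR adjusted p = 0.0175). Without mouse 476 it was still called, with a log2 fold change of 2.20 (SE 0.40, edgeR adjusted p = 0.0198), and in that fit 6.01% of 18576 genes were called higher. Of the 6 tested genes it was the only one called without mouse 476, and it lost its call only without DMSO mouse 482 (edgeR adjusted p = 0.0506).

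The 3 secondary granule genes and Ly6g were read in so few fragments outside mouse 476 that they did not pass the filter. Ngp (ENSMUSG00000032484), neutrophilic granule protein, on chromosome 9 from 110419747 to 110423012, had counts of 0, 0, 2 and 3 after DMSO and of 411, 3 and 0 after ABT-263. Ltf (ENSMUSG00000032496), the iron-binding lactoferrin, on chromosome 9 from 111019271 to 111042767, had counts of 5, 4, 1 and 13 after DMSO and of 231, 10 and 8 after ABT-263. Camp (ENSMUSG00000038357), the cathelicidin, on chromosome 9 from 109847379 to 109849617, had counts of 2, 0, 0 and 27 after DMSO and of 128, 4 and 12 after ABT-263.

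In all 3 genes mouse 476 was the highest and the other two ABT-263 mice lay within the range of DMSO CPM. Ly6g (ENSMUSG00000022582), whose protein is the usual surface marker of mouse neutrophils, on chromosome 15 from 75155240 to 75159126, showed the same pattern, with counts of 0, 6, 0 and 3 after DMSO and of 391, 4 and 8 after ABT-263. Ly6g belongs to a family of near-identical neighbours, and reads that fit several of them equally would be missing from counts of uniquely placed reads. Mouse 476 held between 92.7% and 99.5% of the ABT-263 group's CPM for these 4 genes, against 77.2% for Csf3r, 71.4% for Lcn2, 55.4% for Slpi, 43.4% for S100a8 and 42.4% for S100a9.

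With the filter dropped and all genes that had a count tested, none of the 10 genes was called by edgeR, although 4 had an unadjusted p under 0.05. That fit called 11.1% of its genes, and in it the adjusted p was 0.227 for Ngp, 0.243 for Ltf, 0.474 for Camp and 0.206 for Ly6g. DESeq2, the study's test, gave no p-value to any of the 6 neutrophil genes because its outlier filter removed them, and in each the most influential library was mouse 476. Of the 4 shared genes DESeq2 called 3: S100a8 (adjusted p = 8.61e-06), Lcn2 (adjusted p = 0.00803) and S100a9 (adjusted p = 0.0435). It called 25.9% of the genes to which it gave an adjusted p.

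**Figure D2:**
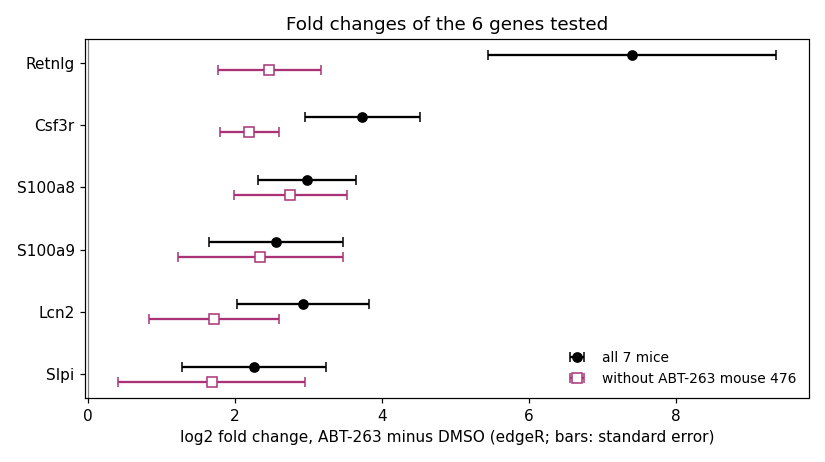
Log2 fold change between ABT-263 and DMSO (edgeR) of the 6 genes that passed the filter, with bars of 1 standard error, for all 7 mice (black) and without ABT-263 mouse 476 (open squares). Leaving out that mouse moved Retnlg from 7.40 to 2.47 and S100a8 only from 2.98 to 2.75.

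Ranked by mean CPM per kilobase of exon, the order after DMSO was S100a9 (1285), S100a8 (407), Slpi (38.3), Lcn2 (24.0), Retnlg (0.771), Csf3r (0.697), Camp (0.393), Ly6g (0.0998), Ltf (0.0695) and Ngp (0.0462). Taken by the ranges over mice, Lcn2 and Retnlg, a shared and a neutrophil gene, were the only neighbours that did not overlap on this scale. Ranges ignore that both genes of a step were read in the same mice. Within each DMSO mouse S100a8 also lay above Slpi. After ABT-263 the per-kilobase levels were 7550 for S100a9, 3222 for S100a8, 184 for Slpi, 183 for Lcn2, 133 for Retnlg and 9.33 for Csf3r. By the ranges of the ABT-263 mice, S100a9 lay above S100a8 and S100a8 above Slpi without overlap, while Retnlg overlapped Lcn2 through mouse 476 alone, with 392 in that mouse.

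The promoters of these genes show which binding letters the groups have in common. RefSeq windows on GRCm38.p6 were found for all 10 genes, with 2 start sites for Ly6g, and the 250 bases before each start were searched on both strands for 5 motifs. The C/EBP letters TTGCNNAA, the family that drives granule genes in maturing myeloid cells, were in 7 of the 11 windows and in 9.56% of 32851 windows of all genes. The letters GAGGAA, the core of sites of PU.1, were in 6 of the 11 and in 23.3% of all windows. The 2 windows of Ly6g overlap and hold the same PU.1 matches, which are counted in both. The motifs did not overlap. NF-kB (GGNNTTTCC, in 4.93% of all windows), AP-1 (TGANTCA, 6.75%) and STAT letters (TTCCNGGAA, 0.913%) were in none of the 11.

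The C/EBP match was not particular to the neutrophil genes, as it lay before Ngp (2 matches), Ltf, Retnlg and 1 start of Ly6g and also before S100a9, Lcn2 and Slpi. Csf3r and S100a8 held the PU.1 letters only, and Camp held neither. The second matches of Ngp and S100a8, 11 and 36 bases before the start, lie past the stretches shown. To let the neutrophil genes be read beside the calprotectin pair, 5 of the windows follow, 5′ to 3′ along each gene and up to the first base that GENCODE M21 places in the gene, with C/EBP and PU.1 matches in capitals. Ngp is chr9:110419558-110419746, Ltf is chr9:111019042-111019270, Retnlg is chr16:48872358-48872607 and S100a8 is chr3:90668821-90668977, all on the plus strand, and S100a9 is chr3:90695722-90695971 on the minus strand.
Ngp: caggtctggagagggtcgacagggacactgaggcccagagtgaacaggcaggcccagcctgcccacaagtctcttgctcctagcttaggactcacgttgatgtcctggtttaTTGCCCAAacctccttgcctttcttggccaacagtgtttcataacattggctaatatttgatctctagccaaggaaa
Ltf: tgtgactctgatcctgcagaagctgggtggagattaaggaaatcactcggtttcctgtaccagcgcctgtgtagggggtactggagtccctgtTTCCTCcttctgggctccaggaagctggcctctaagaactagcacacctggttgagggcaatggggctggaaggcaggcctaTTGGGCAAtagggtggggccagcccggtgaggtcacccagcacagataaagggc
Retnlg: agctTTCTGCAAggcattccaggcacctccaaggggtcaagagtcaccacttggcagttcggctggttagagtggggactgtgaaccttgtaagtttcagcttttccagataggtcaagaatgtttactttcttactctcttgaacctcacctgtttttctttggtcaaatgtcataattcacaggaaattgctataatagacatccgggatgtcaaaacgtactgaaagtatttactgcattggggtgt
S100a8: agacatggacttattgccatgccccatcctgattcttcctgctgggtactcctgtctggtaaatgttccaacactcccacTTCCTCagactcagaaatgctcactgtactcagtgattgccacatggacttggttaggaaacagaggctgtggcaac
S100a9: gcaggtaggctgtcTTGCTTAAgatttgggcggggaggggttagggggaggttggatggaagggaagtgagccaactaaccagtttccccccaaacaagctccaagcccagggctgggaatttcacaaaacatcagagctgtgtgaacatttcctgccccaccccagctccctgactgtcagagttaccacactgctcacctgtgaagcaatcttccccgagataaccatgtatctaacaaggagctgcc

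The question of how far the shared genes and the neutrophil genes moved apart was put to ratios within each mouse. For each of the 24 pairs of a shared and a neutrophil gene, the log2 ratio of counts (0.5 added to each) was compared between groups with a two-sided exact permutation test over mice. Of the 24 pairs, none had an unadjusted p under 0.05 in this exact permutation test, and the smallest was p = 0.229 (adjusted p = 0.997), for Lcn2 to Retnlg, where the design allows no p below 0.0286. None of the 24 separated the ABT-263 mice from the DMSO mice. In 16 of the 24 pairs the neutrophil gene was Ngp, Ltf, Camp or Ly6g, with at most 27 counts in any library other than mouse 476, so the added 0.5 and the depth weigh on these ratios and no direction is read from them.

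Ratios to Retnlg were on average lower after ABT-263 for all 4 shared genes. Retnlg had 10, 2, 6 and 25 counts after DMSO, so the added 0.5 and the depth weigh on these ratios as well. For S100a8 to Retnlg the log2 ratios were 10.24, 9.14, 10.21 and 7.23 after DMSO and 3.65, 9.67 and 9.42 after ABT-263. Mouse 476 alone was far below the rest, and mice 477 and 478 lay inside the DMSO range.

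Ratios to Csf3r, the neutrophil gene with the most counts in every DMSO mouse, had mean differences between -0.36 and 0.17. For S100a8 to Csf3r they were 7.11, 5.44, 7.81 and 5.59 after DMSO and 5.22, 7.11 and 7.61 after ABT-263, a mean difference of 0.16 (exact permutation test, p = 0.914). For Lcn2 to Csf3r the difference was -0.24, and its 3 ABT-263 mice lay close together with an SD of 0.33 against 1.28 among the DMSO mice. Without mouse 476 no pair with Retnlg or Csf3r separated the groups.

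**Figure D3:**
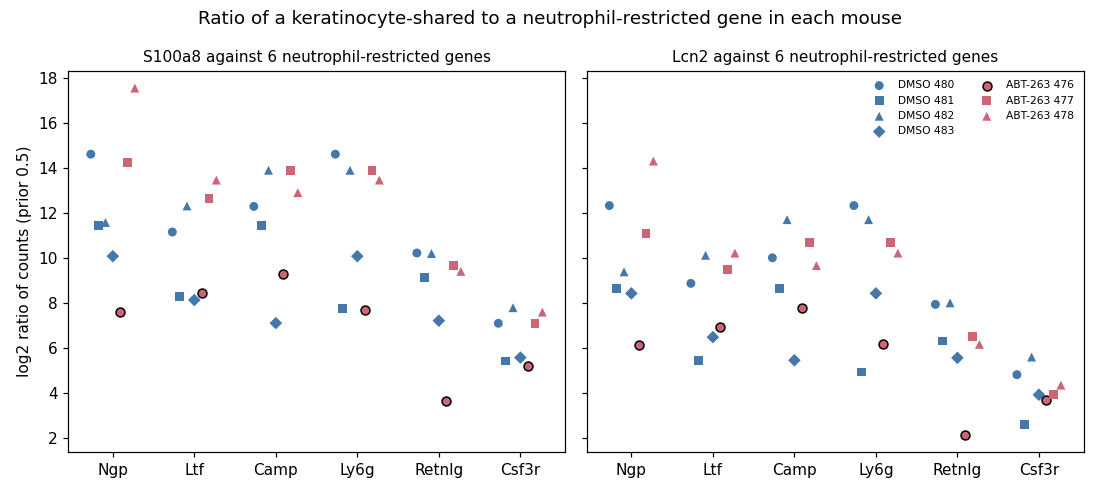
Log2 ratio of counts, with 0.5 added, of S100a8 (left) and of Lcn2 (right) to each of the 6 neutrophil genes in each mouse, with DMSO mice in blue, ABT-263 mice in red and a black outline for mouse 476. Mouse 476 lies below every DMSO mouse for Retnlg, where mice 477 and 478 fall within the DMSO range.

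Other markers moved with mouse 476. The 7 keratinocyte markers were lowest there, with a sum of 19304 CPM against 59354 and 31375 CPM in mice 477 and 478 and 25846 to 68511 CPM after DMSO, and the part of this in the levels of the 10 genes was not tested. The 5 red cell genes (Hba-a1, Hba-a2, Hbb-bs, Hbb-bt and Alas2) summed to 1747 CPM in mouse 476 against 164 and 135 CPM in mice 477 and 478 and 158 to 276 CPM in the DMSO mice, and none of the 5 was called by edgeR (1 had an unadjusted p under 0.05, and DESeq2 gave none an adjusted p). The most abundant, Hbb-bs, stood at 1220.1 CPM there and between 83.3 and 153 CPM in the other 6 mice. Without mouse 476, Hba-a2 was called lower (log2 fold change -1.90, edgeR adjusted p = 0.0172), with 11.0 and 5.80 CPM in mice 477 and 478 and 25.7 to 38.4 CPM after DMSO. Blood in the sample and its part in the neutrophil values were not tested. The 8 macrophage markers summed to 2971 CPM in mouse 476, 1249.8 and 1563 CPM in the other ABT-263 mice and 410.3 to 1199 CPM after DMSO. Of the 8, 4 rose (Csf1r, Adgre1, Mrc1 and Cd68), where 12.4% of all genes tested did. Csf1r was called in 6 of the 7 fits that left out a mouse, that without mouse 476 among them, Mrc1 and Cd68 in 2 each and Adgre1 in 1, so that these calls were lost without several mice and not with mouse 476 alone. Of the 4 genes common to leukocytes, Ptprc rose, from 5.56 to 9.82 CPM after DMSO to 114, 16.2 and 22.2 CPM after ABT-263, and was called in 4 of the 7 fits that left out a mouse, that without mouse 476 among them.

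Monocytes share several of the receptors below, and of their 4 markers 3 rose, where 12.4% of all genes tested did: Plac8, Ccr2 and Ly6c2, none of which was called without mouse 476 or without any 1 of the DMSO mice. The 4 monocyte markers summed to 701 CPM in mouse 476, 166 and 281 CPM in mice 477 and 478 and 73.1 to 172 CPM after DMSO. Eosinophil markers were near 0 in every mouse, with a sum of at most 2.09 CPM. The T cell (7 genes), mast cell (5) and platelet (4) lists had no gene called by edgeR, with 0, 1 and 1 genes at an unadjusted p under 0.05 and 1, 1 and 0 called by DESeq2. Of the remaining tissue markers, all 4 endothelial genes and 3 of 5 fibroblast genes rose, and 1 of 4 skeletal muscle genes, Tnnt3, fell. Of these, Cdh5, Kdr, Col3a1 and Pdgfra were called whichever mouse was left out, Vwf in 5 of the 7 such fits, Pecam1 in 3, Col1a2 in 2 and Tnnt3 in 1. The part of any of these cells in the levels of the 10 genes was not tested.

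**Figure D4:**
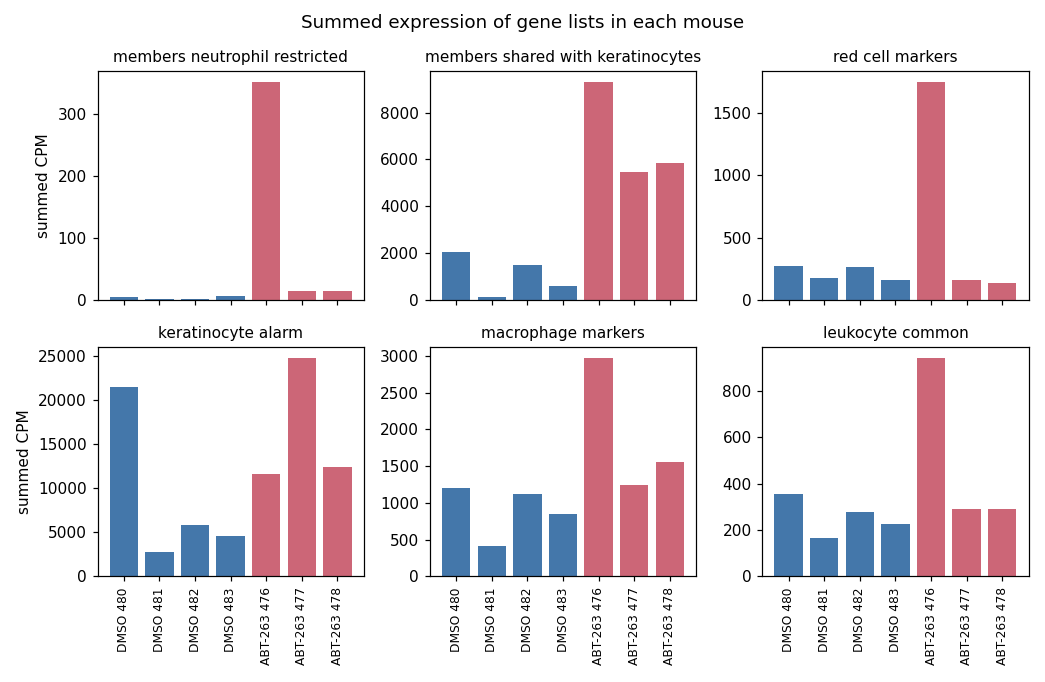
Summed CPM of 6 gene lists in each mouse, as bars that start at 0, with DMSO mice in blue and ABT-263 mice in red. The neutrophil genes, the red cell markers and the leukocyte genes peak in mouse 476, the shared genes are high in all 3 ABT-263 mice, and the keratinocyte alarm list is highest in ABT-263 mouse 477 and DMSO mouse 480.

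Of 15 further neutrophil granule genes, 9 passed the filter, 4 rose and none fell, with a median log2 change of 2.76. Over all genes tested 12.4% rose, and the median was 0.0022. The primary granule genes Mpo, Elane and Ctsg did not pass the filter and were under 1 CPM in every mouse, mouse 476 included. Prtn3, proteinase 3 of the same granules, passed the filter with 1.28 to 5.38 CPM after DMSO and 6.76, 2.39 and 3.27 CPM after ABT-263, and was not called (log2 fold change 0.75, edgeR adjusted p = 0.378). Mmp9, a gelatinase of late granules that other skin cells also make, stood at 7.90 to 12.9 CPM after DMSO and at 316, 39.3 and 35.7 CPM after ABT-263 (log2 fold change 3.63, edgeR adjusted p = 0.0194). It remained called without mouse 476, as did Chil3, with 0.590 to 2.34 CPM after DMSO and 177, 3.38 and 7.24 CPM after ABT-263. Mmp9 lost its call without DMSO mouse 482 or 483, and Chil3 without each of the DMSO mice in turn. Cd177, a neutrophil surface protein, and Hp, haptoglobin, the most abundant of the list, lost their calls without mouse 476 and without several others. Cd177 was called in 1 and Hp in 2 of the 7 fits that left out a mouse. With 16, 1, 12 and 3 counts after DMSO, Cd177 passed the filter through the ABT-263 mice. Without DMSO mouse 482 none of the 9 was called by edgeR, with 6 at an unadjusted p under 0.05, without DMSO mouse 480 or 483 the count was 1, and DESeq2 called 3 of 11. Over all genes the share called in either direction was 10.3% without 482, 23.5% without 480, 11.7% without 483 and 25.9% in DESeq2. Mmp8, the neutrophil collagenase, had 59.1 CPM in mouse 476, whereas 0.807 and 1.29 CPM in mice 477 and 478 lay inside the DMSO range of 0.548 to 1.88 CPM. Mmp8, Mpo, Elane, Ctsg and Prtn3 are named after their values were seen.

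Receptors and surface proteins of neutrophils and other myeloid cells form the group to which Csf3r belongs. Of 15 others, 13 passed the filter, 9 rose and none fell, with a median log2 change of 4.10, and 8 of the 13 were called without mouse 476. Over all genes tested 12.4% rose, and without mouse 476 it was 6.01%. Fpr1, a receptor for bacterial formyl peptides, had 0 to 0.211 CPM after DMSO and 29.1, 1.56 and 1.10 CPM after ABT-263 (log2 fold change 7.03, edgeR adjusted p = 0.0199). Trem3, an activating receptor, had 0 to 0.123 CPM after DMSO and 6.72, 1.21 and 0.601 CPM after ABT-263. Clec4d and Clec4e, lectins that sense mycobacterial glycolipids, the integrin subunit Itgb2 and Ptafr, the receptor for platelet-activating factor, also rose with no overlap between the groups. Il1r2, the decoy receptor for IL-1 and the most abundant of the list, did not pass, with 36.7 to 48.3 CPM after DMSO and 94.1, 36.7 and 27.9 CPM after ABT-263. Trem3 and Ptafr were called whichever mouse was left out, whereas the count for the list fell to 3 without DMSO mouse 482 and to 3 without DMSO mouse 483. Over all genes the share called in either direction fell from 24.2% to 10.3% and 11.7% in those fits. With 0 to 3 counts of Trem3 and 0 to 5 of Fpr1 after DMSO, these 2 genes passed the filter through the ABT-263 mice. That they were tested thus depended on the group where they are high, and the count and median of the list include them.

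Of 12 cytokines that attract neutrophils or raise their number, 11 passed the filter and 8 rose (Il1b, Cxcl1, Cxcl2, Cxcl3, Ccl3, Csf3, Il17f and Il23a), with a median log2 change of 4.85. Over all genes tested 12.4% rose. Without mouse 476, 2 were called, Il1b and Cxcl3, where 6.01% of all genes in that fit were called higher. Both were called whichever mouse was left out. The count was 4 without DMSO mouse 482 and 5 without DMSO mouse 481, DMSO mouse 483 or ABT-263 mouse 478. Over all genes the share called in either direction was 10.3%, 16.1%, 11.7% and 9.39% in those fits. Csf3, the ligand of Csf3r, stood at 0 to 2.01 CPM after DMSO and at 147, 2.52 and 5.22 CPM after ABT-263. It rose with a log2 fold change of 6.12 (edgeR adjusted p = 0.0469), and its call was lost without mouse 476. Csf3 and Cxcl1 are named after their values were seen. Il17f, which raises Csf3 and alarmins in epithelium, had 0 to 0.288 CPM after DMSO and 2.86, 0.454 and 2.43 CPM after ABT-263 (log2 fold change 4.25, edgeR adjusted p = 0.0235). Il23a, a subunit of the cytokine that sustains IL-17 production, had 0.205 to 1.06 CPM after DMSO and 3.50, 2.14 and 2.19 CPM after ABT-263 (log2 fold change 2.56, edgeR adjusted p = 0.0221). Il17f was called in 4 and Il23a in 2 of the 7 fits that left out a mouse, neither of them without mouse 476. Counts after DMSO were 2, 0, 0 and 7 for Il17f and 3, 0, 16 and 49 for Csf3, so both passed the filter through the ABT-263 mice. The count and median of the list include them.

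The stress genes of keratinocytes bear on the 4 shared members, since both are switched on in the injured epidermis. Of 17 such genes (keratins 6, 16 and 17, small proline-rich proteins, defensins, IL-36 cytokines and others), all passed the filter, 2 rose (Serpinb3a and S100a7a), where 12.4% of all genes tested did, and none fell. Of the 17, 16 had a positive log2 fold change, with a median of 1.28. In 7 of the 17 every ABT-263 mouse lay above every DMSO mouse, where 18.7% of all genes tested were ordered in that way. The summed level of the 17 was 21488, 2755, 5827 and 4622 CPM in DMSO mice 480, 481, 482 and 483 and 11597, 24771 and 12433 CPM after ABT-263. By this sum DMSO mouse 480 lay above 2 of the 3 ABT-263 mice, and without it 13 of the 17 genes were called, all higher. In that fit 2065 of 17738 genes were called higher, and 23.5% in either direction. Leaving out DMSO mouse 482 or 483, or any of the ABT-263 mice, left no call by edgeR, with 2 genes (without mouse 476) or 4 at an unadjusted p under 0.05, and DESeq2 called 5 of the 15 genes to which it gave an adjusted p.

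Among the DMSO mice the keratin Krt16 ran in the order of S100a8, from 480 (9686 CPM) through 482 (1855 CPM) and 483 (1279 CPM) down to 481 (412 CPM). Among the ABT-263 mice the orders were opposite, with 3328, 9832 and 3739 CPM of Krt16 in mice 476, 477 and 478. Krt16 itself did not pass the threshold (log2 fold change 0.77, edgeR adjusted p = 0.591), nor did Krt14, the most abundant of 7 keratinocyte markers (log2 fold change 0.25, edgeR adjusted p = 0.728). None of those 7 markers was called by edgeR or DESeq2, and none had an unadjusted p under 0.05.

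Stefin A genes encode inhibitors of cysteine proteases, and this mouse cluster holds members read in neutrophils and members read in the epidermis. All 9 passed the filter and 2 rose, where 12.4% of all genes tested did. Without DMSO mouse 480, the highest DMSO mouse for the cluster's sum, 8 were called, all higher. In that fit 2065 of 17738 genes were called higher. Stfa2l1 had 0.655 to 1.18 CPM after DMSO and 90.3, 13.01 and 2.99 CPM after ABT-263 (log2 fold change 5.14, edgeR adjusted p = 0.0180), and was also called without mouse 476 but not without DMSO mouse 482. Gm5483 had 1.33 to 4.40 CPM after DMSO and 111, 14.01 and 3.78 CPM after ABT-263, and was called in 1 of the 7 fits that left out a mouse. BC100530, the most abundant, was high in DMSO mouse 480 and ABT-263 mouse 477, as was the sum of the keratinocyte stress genes. It had 2119, 215, 833 and 403 CPM after DMSO and 1371, 2147.5 and 1339 CPM after ABT-263, and did not pass (edgeR adjusted p = 0.393). The genes of this cluster are near-identical copies, so their counts are uncertain.

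**Figure D5:**
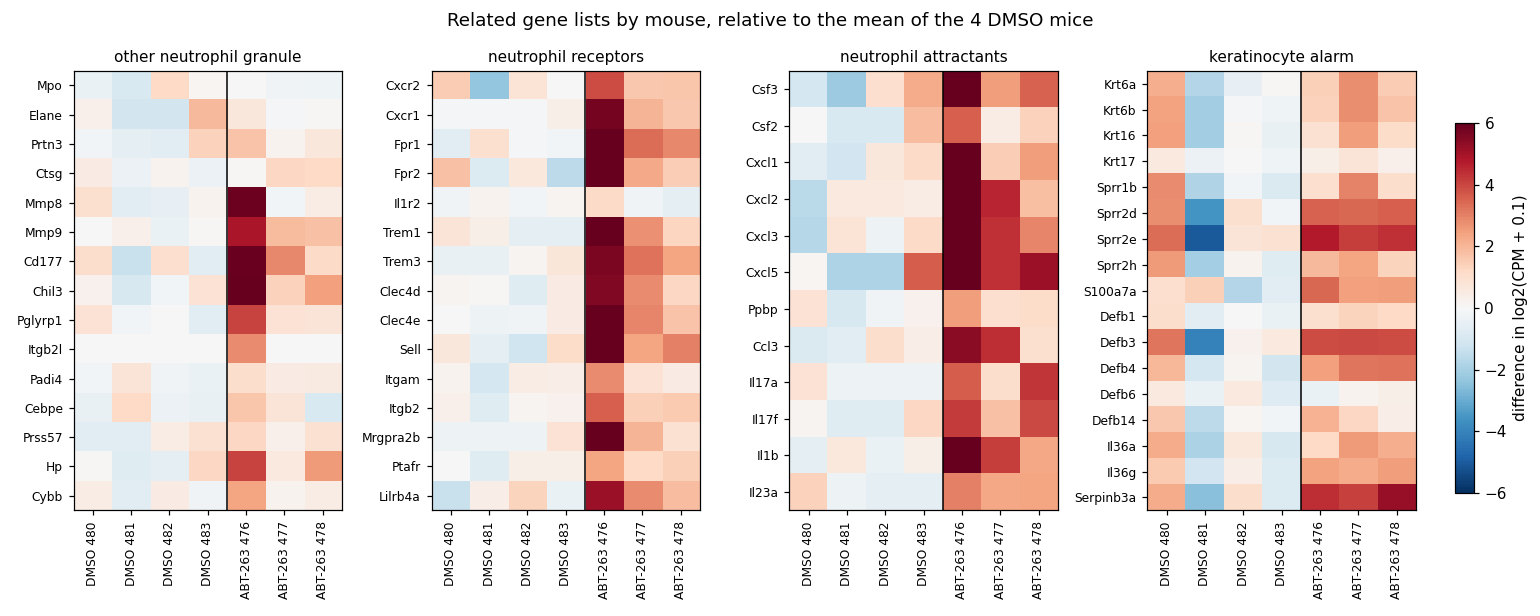
Difference of log2(CPM + 0.1) from the mean of the 4 DMSO mice for each gene of 4 lists (further granule genes, receptors, attractants, keratinocyte alarm genes), with red for higher and blue for lower and the colours ending at 6 in either direction. Granule genes are darkest in mouse 476, most receptors are red in all 3 ABT-263 mice, and most keratinocyte genes are red in DMSO mouse 480 as well and blue in DMSO mouse 481.

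On the receiving side, 9 receptors and adaptors for calprotectin and lipocalin were examined, of which 8 passed the filter and 3 rose. Over all genes tested 12.4% rose. Cd14, the co-receptor of Tlr4, had 12.6 to 15.6 CPM after DMSO and 401, 95.8 and 30.0 CPM after ABT-263 (log2 fold change 3.67, edgeR adjusted p = 0.0170). Tlr4 had 1.64 to 3.54 CPM after DMSO and 21.02, 5.70 and 8.29 CPM after ABT-263 (log2 fold change 2.02, edgeR adjusted p = 0.0216), and both kept their calls without mouse 476. Cd14 was called whichever mouse was left out, and Tlr4 lost its call without DMSO mouse 481, 482 or 483. Myd88, the adaptor below them, rose with a log2 fold change of 0.96 but was called in 1 of the 7 fits that left out a mouse. Bsg, a receptor reported for S100a9 and the most abundant of the list, did not pass (log2 fold change -0.19, edgeR adjusted p = 0.453).

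The relatives of Slpi and Retnlg moved in both directions. Among 11 whey acidic protein and serpin genes, Serpina3n, an inhibitor of neutrophil proteases made in the acute phase, rose from between 35.6 and 89.6 CPM after DMSO to 854, 236 and 339 CPM after ABT-263 (log2 fold change 2.97, edgeR adjusted p = 0.00987), and was called whichever mouse was left out. Serpinb1a, an inhibitor of elastase and cathepsin G, rose with a log2 fold change of 0.99 and was called in 1 of those 7 fits. Wfdc3 fell from between 20.8 and 56.7 CPM to 8.22, 16.8 and 10.3 CPM (log2 fold change -1.58, edgeR adjusted p = 0.0254), and lost its call without mouse 476, ABT-263 mouse 478 or DMSO mouse 482. Of the other resistin family genes, Retnla, a product of alternatively activated macrophages and of fat, fell from between 80.7 and 146 CPM to 10.3, 8.87 and 33.5 CPM (log2 fold change -2.69, edgeR adjusted p = 0.0147), opposite in sign to Retnlg, and lost its call without mouse 476. Retn was at 22.7 to 132 CPM after DMSO and at 123, 19.6 and 132 CPM after ABT-263.

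Likeness to 2 of the genes was measured as the Pearson correlation of log2 CPM over the 7 mice, which share the treatment split and the library, among 13541 other protein-coding genes. The genes most like S100a8 were Ehd4 (0.996), Lgals9 (0.992), Gk (0.990), Mx1 (0.988) and Adam17 (0.988). The genes most like Csf3r were Emb (0.992), Ccbe1 (0.990), Ifitm1 (0.989), Usb1 (0.989) and Lrrc8c (0.989). Among the genes themselves, the correlation was 0.967 for S100a8 with S100a9 and 0.966 for Retnlg with Csf3r. Between a neutrophil and a shared gene it ran from 0.696 for Retnlg with S100a9 to 0.899 for Csf3r with Lcn2. For S100a8 with Csf3r it was 0.855.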

How the data were processed

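The authors aligned reads to mm10 with STAR 2.7.9a and used featureCounts (Subread 1.6.2) to obtain strand-matched counts of properly paired, uniquely placed reads for each non-mitochondrial Ensembl gene. They deposited these counts unnormalized, and a second table of variance-stabilized values on a log2 scale that the authors made with DESeq2 1.23.10, used here as an alternative only. The labels and the study's methods name different RNA extraction kits. Symbols, positions and exon lengths came from GENCODE M21 (GRCm38) and promoters from RefSeq (GRCm38.p6).

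Counts were tested with the quasi-likelihood test of edgeR 4.0.16 in R 4.3.3 (TMM scaling, filterByExpr, robust estimation, two-sided, Benjamini-Hochberg adjustment over 17959 genes, threshold 0.05), checked on simulated data. No covariate was used, since the labels name no batch. The standard error is the log2 fold change over the square root of F. Ratios used the exact permutation test over 35 assignments of the mice. Alternatives were DESeq2 1.42.0, limma 3.58.1, other filters and scalings, thinned counts and each mouse left out. Total counts limit precision for the genes with few counts, and no interval was computed from them.

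The 10 genes and all lists were chosen with earlier results of these data known. From each pathway list the text names up to 6 called genes by smallest p and the most abundant gene, from each cell type list the most abundant gene and any called gene, and for likeness 5 genes with a mean of at least 1 CPM. Genes outside this rule are marked, and fibroblast, endothelial and skeletal muscle markers served only to check the tissue.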

Additional observations from a re-analysis of the deposited data

Results flagged for a closer look

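Among the 4 DMSO mice, 92 measures (the named genes and the summed lists) were checked with Dixon's ratio for a value standing apart. At the 5% level 13 did, where chance, at 1 in 20, gives about 4.6. Of the neutrophil and alarmin genes, Camp was highest in DMSO mouse 483 (ratio 0.926) and Slpi in DMSO mouse 480 (0.865). Mouse 480 was also the highest for Krt16 (0.844), for the summed keratinocyte alarm genes (0.836), for Il23a (0.945), for Trbc2, a T cell receptor gene (0.944), for the mast cell protease Mcpt4 (0.894) and the summed mast cell markers (0.878), and for the eosinophil gene Prg2 (0.868) and the summed eosinophil markers (0.946). It was the lowest for Cxcl2 (0.876) and Serpinb6a (0.860). DMSO mouse 481 was the lowest for Itgb2 (0.842). The 3 ABT-263 mice are too few for this ratio, so mouse 476 was not tested by it.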

How the results depend on the processing

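When single mice were left out, the number of genes called between ABT-263 and DMSO ranged from 1735 to 4169 against 4342 with all mice, and the number called among the 10 genes from 1 to 3 against 3. The number of the 24 ratios that separated the groups ranged from 0 to 2 against 0, the 2 being ratios to Ltf without ABT-263 mouse 476, which rest on at most 13 counts of Ltf in a library and are not read as a separation. Testing every gene with a count left 0 of the 10 genes called against 3. No log2 fold change of the 6 tested genes changed sign under any alternative run, and of 75 alternative values 57 stayed on the same side of the threshold, 13 lost a call and 5 gained one. Besides the fits without a mouse, those gained were S100a9 (2.57) and Lcn2 (2.96) in DESeq2 and Lcn2 (2.94) among genes with at least 10 counts in every library, and those lost were Retnlg, Csf3r and S100a8 on every gene with a count and Retnlg (3.66) in limma on the variance-stabilized values. A prior of 2 counts, or counting Camp with the shared genes, left 0 ratios separating the groups. The counts of called list genes without each mouse were added after seeing the data. Ngp, Ltf, Camp and Ly6g had at most 27 counts in any library other than mouse 476. No paired analysis was possible because the groups share no replicate numbers.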
